A study of Mus musculus with 120 samples.

Results

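CC019 is one of the Collaborative Cross strains, inbred mouse lines that each carry a different mosaic of several founder genomes. Its liver RNA at baseline, on the control diet, was compared with that of 7 other strains (CC011, CC013, CC032, CC040, CC041, CC042 and CC043) on the same diet. The members were the 6 CC019 control-diet libraries, 3 from females and 3 from males, out of 120 libraries in the series, and the comparison libraries were 41. Mice had eaten for 12 weeks an ingredient-matched diet low in fat and reduced in sucrose (Control), or an obesogenic high-fat, high-sucrose diet (HF/HS). The 6 CC019 libraries and 41 libraries of the same strains on HF/HS served as a second set that the control comparison did not use. The strains CC003 and CC060 were not part of the comparison, whose rule takes them as another library type. The labels do not state a library type for each library. In addition, 2 columns of CC040 females that held identical values were left out. The labels give no age and do not say that the 3 libraries of a strain, sex and diet came from separate animals, so the spread within a strain may be partly technical.

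Strains of this cross differ in the founder alleles they carry at many genes, and liver RNA levels follow many of these alleles. A gene whose level depends on a regulatory variant close to it is said to have a cis effect, whereas the composition of the tissue, sex hormones, feeding and the daily clock move many genes together. Because the mice of an inbred strain share a genome, the strain and not the library is the unit over which strains can be compared. CC019 is then 1 value and the other strains give the spread against which it is set.

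Values are the authors' FPKM-like levels, rescaled so that the 75th percentile was 9.99 to 10.0 in each library. They are per transcript length, the depth behind them is unknown, and they were used as log2(value + 1). CC019 libraries summed to 964501 to 1141640 units and those of the other strains to 979059 to 1365540. Xist, the RNA that silences 1 X chromosome in females, was 60.3 to 122 in CC019 females and 0.0675 to 0.523 in CC019 males. Of the hepatocyte markers, 14 were tested and their median difference was 0.06 on the log2 scale. Alb was listed at 0 in all 47 control-diet libraries, although it is the main product of the liver, so a 0 in this table can be a failed estimate.

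The protein-coding genes that passed the strain test were Hes6, Jmjd7 and Pon3. Each fell in CC019, against a narrow range of means in the other strains. With 8 strain means, 6 of 12065 genes passed an adjusted p under 0.05 (limma, Benjamini-Hochberg adjustment), which is 0.0497% of those tested. Of these, 4 fell (0.0332%), and the 2 above the other strains (0.0166%) are short RNA rows listed at 0 in every other control library. The unadjusted p was under 0.05 for 512 genes (4.24%), 263 higher (2.18%) and 249 lower (2.06%) in CC019. When each library was instead treated as an independent observation, 5277 genes passed (43.7%), a count in which libraries of 1 strain are not independent. Without the rows of short RNAs, an alternative added after the data were seen, Hes6 alone passed.

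Hes6 encodes a basic helix-loop-helix cofactor of the HES family of transcriptional repressors and lies at chr1:91411483-91413222 (mm10). CC019 control libraries held 10.8, 16.9 and 24.8 units (lowest, median and highest of 6), against 32.7, 91.3 and 219 units in the 41 libraries of the other strains. No CC019 library reached the lowest of the others, and the 7 other strain means lay between 74.2 and 111 units. The CC019 mean was 18.5% of theirs, a log2 difference of -2.31 ± 0.16 (SE; adjusted p = 0.00269, limma on strain means). The difference was -2.23 in females and -2.40 in males. The call was lost with 16 strain-sex means (adjusted p = 0.573, limma) and within females or males alone (0.0622 and 0.322).

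Jmjd7 encodes a jumonji-domain hydroxylase and lies at chr2:120027483-120032604. CC019 libraries held 0.110, 0.159 and 0.487 units, against 1.34, 2.28 and 3.65 units in the other strains. All 6 CC019 libraries were below every other library, and the CC019 mean was 9.61% of that of the other strains. The log2 difference was -1.40 ± 0.15 (adjusted p = 0.0397, limma on strain means). It understates the ratio, because both levels are near the added 1. An annotated read-through gene, Gm28042, overlaps Jmjd7 on the same strand, so reads of these genes cannot be told apart from the table.

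Pon3 encodes paraoxonase 3, a lactonase made in liver and carried on high-density lipoprotein, and lies at chr6:5220852-5256233. CC019 libraries held 19.7, 21.5 and 27.6 units, against 47.8, 57.5 and 77.8 units elsewhere. The groups did not overlap, and the other strain means spanned only 53.8 to 70.5 units. The log2 difference was -1.38 ± 0.16 (adjusted p = 0.0449, limma on strain means). Jmjd7 and Pon3 each had an adjusted p of 0.0580 (limma) when short RNAs were left out of the table. Each also lost the call without any 1 of the other strains except CC043 (adjusted p up to 0.106 for Jmjd7 and 0.128 for Pon3, limma).

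The remaining called rows are a pseudogene and short RNAs, named here after their values were seen. Rps15a-ps6, a ribosomal protein pseudogene inside Nudcd3, fell to 3.51, 3.86 and 4.70 units in CC019, against 9.30, 14.9 and 21.95 units in the other strains (log2 difference -1.66 ± 0.19, adjusted p = 0.0449, limma). Its sequence resembles the parent gene, so how its reads were assigned is uncertain. It lost the call in 26 of 71 alternative settings, with an adjusted p (limma) of up to 0.129 when 1 library or strain was left out. Mir6372 was 55.2, 65.4 and 78.8 units in 3 CC019 libraries and 0 in the other 3 CC019 libraries and in all 41 others. Mir1954 was 3485 units in CC019 male 3 and 0 in the other 46 libraries, and its row in the table spans a locus far longer than a microRNA, so what it measures is uncertain. With every other strain at 0, the spread behind both calls comes from the prior of the model alone, and no difference is read from them. On HF/HS, Mir6372 was above 0 in 3 CC019 libraries (146, 149 and 173 units) and in 5 of the others (31.9 to 175 units), and Mir1954 was 0 in all CC019 libraries and up to 1481 units in the others.

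The sequences below are the starts of the 3 protein-coding genes that passed, shown so that the region next to each transcript start can be read beside its value. They are RefSeq reference sequence on GRCm38.p6 (the C57BL/6J mouse, the reference also called mm10), 250 bases before to 50 bases after the start, 5′ to 3′ on the strand of the gene. The regions are chr1:91413173-91413472 on the minus strand for Hes6, chr2:120027233-120027532 on the plus strand for Jmjd7 and chr6:5256184-5256483 on the minus strand for Pon3. Capitals mark the letters of 3 promoter motifs wherever they fell, searched on both strands, also where they overlap. These are the TATA box, here TATAAA, the CCAAT box, here the letters CCAAT, and the GC box, here GGGCGG.
Hes6: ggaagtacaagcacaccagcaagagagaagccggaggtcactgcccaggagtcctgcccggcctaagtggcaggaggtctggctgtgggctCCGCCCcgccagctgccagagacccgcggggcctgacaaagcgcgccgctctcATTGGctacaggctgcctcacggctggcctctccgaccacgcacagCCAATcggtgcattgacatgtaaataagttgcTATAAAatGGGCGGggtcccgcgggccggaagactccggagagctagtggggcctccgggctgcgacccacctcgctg
Jmjd7: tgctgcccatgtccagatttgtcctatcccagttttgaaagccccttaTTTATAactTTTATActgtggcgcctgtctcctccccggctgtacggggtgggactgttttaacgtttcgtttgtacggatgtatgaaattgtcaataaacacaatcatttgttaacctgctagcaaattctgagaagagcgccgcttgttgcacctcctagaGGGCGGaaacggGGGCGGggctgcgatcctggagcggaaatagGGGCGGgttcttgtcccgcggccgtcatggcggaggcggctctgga
Pon3: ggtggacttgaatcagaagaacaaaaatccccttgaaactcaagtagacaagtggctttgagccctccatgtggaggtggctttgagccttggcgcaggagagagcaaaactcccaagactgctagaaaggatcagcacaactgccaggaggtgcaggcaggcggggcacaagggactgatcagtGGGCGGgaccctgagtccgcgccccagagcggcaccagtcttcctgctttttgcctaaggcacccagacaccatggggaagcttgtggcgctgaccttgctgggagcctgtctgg
Hes6 held TATAAA 1 time, CCAAT 2 times and GGGCGG 2 times. Jmjd7 held TATAAA 2 times, both on the opposite strand, and GGGCGG 3 times, and Pon3 held GGGCGG 1 time. Of 32851 mouse promoters of the same length, 13.6% held TATAAA, 37.4% held CCAAT and 35.7% held GGGCGG. These letters are the reference strain's. The CC019 sequence was not used here.

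**Figure D1:**
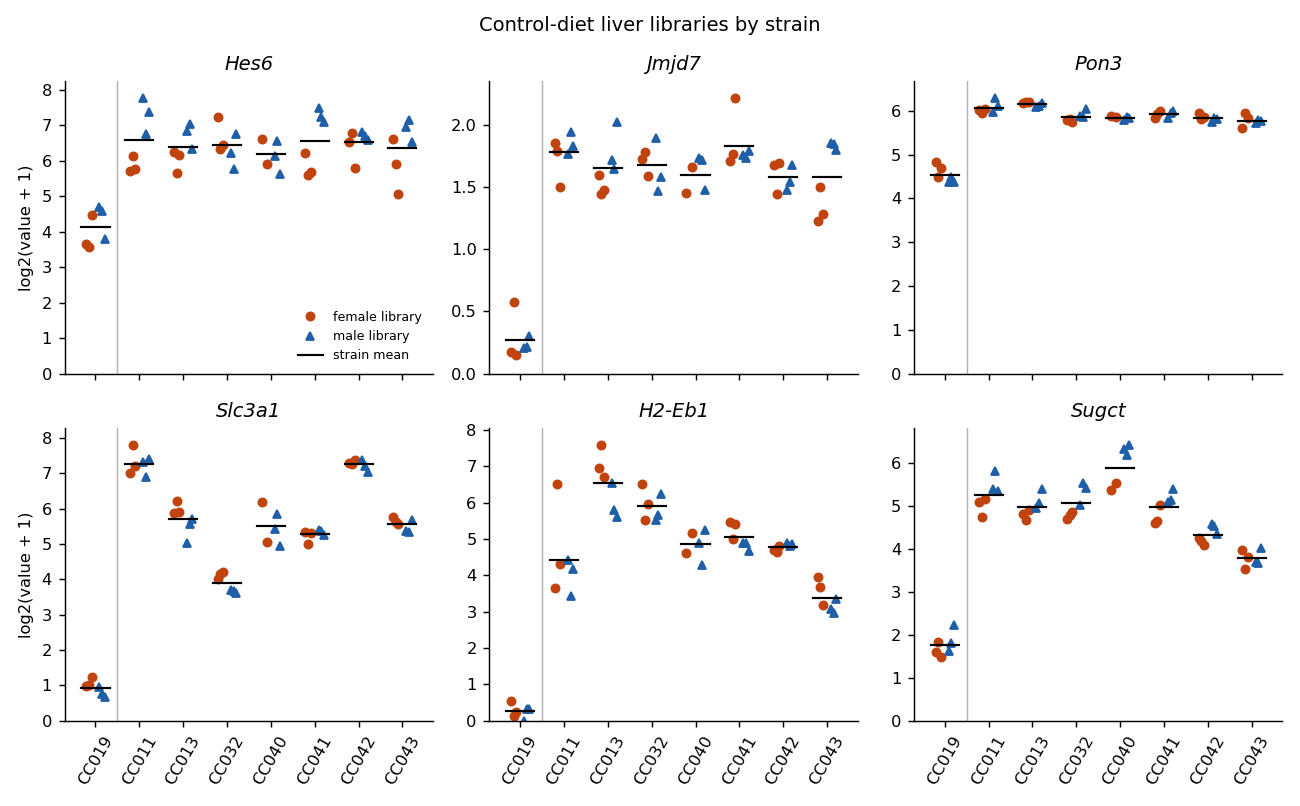
Level of 6 genes in each control-diet library, as log2(value + 1), with CC019 at the left and the 7 other strains to its right. Circles are female libraries, triangles male libraries, and bars strain means. In each panel the CC019 libraries lie below those of every other strain, for Hes6, Jmjd7 and Pon3 against a narrow range of strain means and for Slc3a1, H2-Eb1 and Sugct against a wide one.

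Beyond the called genes, CC019 stood apart for a set of genes most of which the strain test did not call. This set was described by a rule adopted after the data were seen: every CC019 library lay beyond every library of the same sex in the other strains, in the same direction in females and males. It held 107 genes, 41 higher (0.34%) and 66 lower (0.547%) in CC019, which is 0.887% of those tested. It is a description with no test of its own, and it held 29 genes when CC003 and CC060 were added to the other strains. Those strains are taken as another library type, so strain and library type cannot be told apart in that drop. The median size of the difference among them was 0.76 on the log2 scale, and 32 differed by at least 1, of which 9 were higher and 23 lower. Hes6, Jmjd7, Pon3 and Rps15a-ps6 were among them. Most genes described next come from the 15 largest differences per direction in this set. Numbered gene models, pseudogenes and short RNAs were left out of these. The choice was made since only 3 genes outside those classes were called. Prepl, H2-Ea-ps, Cfb, Ring1, Ppt2, Scly, Cox7a2l and Haao were added as neighbours on a chromosome, and H2-Ea-ps did not meet the rule. None of the genes described next passed the adjusted threshold.

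**Figure D2:**
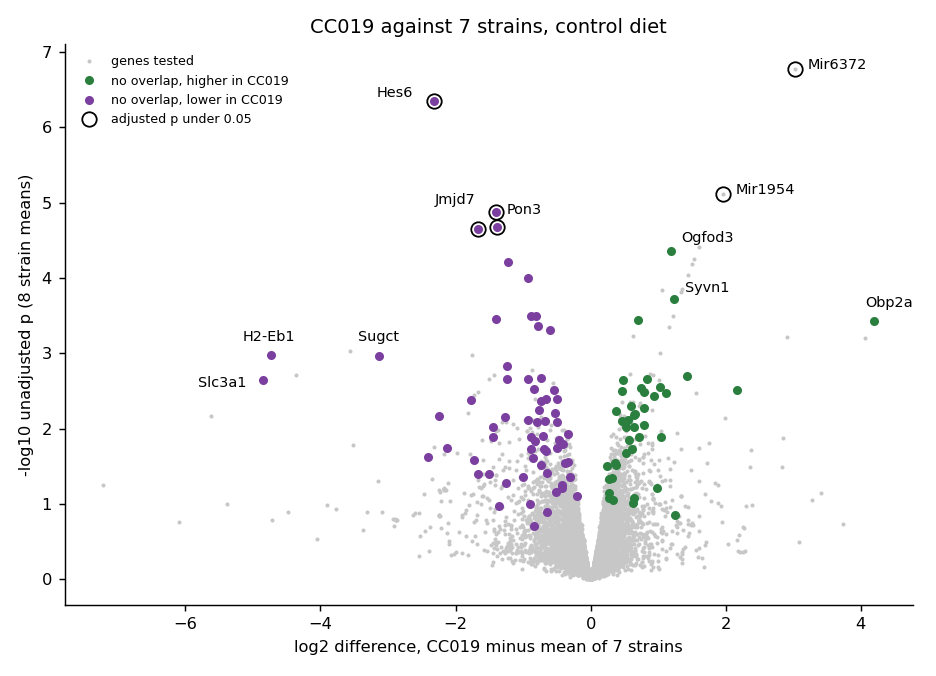
Difference between CC019 and the mean of the 7 other strains (x axis, log2) against the unadjusted p of the strain test (y axis, -log10) for 12065 genes. Filled points are the 107 genes without overlap, and rings are the 6 genes past the adjusted threshold. Slc3a1 and H2-Eb1 have the widest differences among the filled points on the left but lower positions than Hes6.

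Slc3a1 was very low in CC019. It encodes rBAT, the heavy subunit of the cystine and dibasic amino acid transporter, whose loss causes cystinuria in people. CC019 libraries held 0.5996, 0.938 and 1.35 units, against 11.2, 48.7 and 224 units in the other strains. Even the lowest of these, CC032, averaged 14.0 units, and CC011 and CC042 averaged 158 and 153 units. The log2 difference was -4.85 ± 1.10 (adjusted p = 0.551, limma on strain means), and it was -4.83 in females and -4.88 in males. The neighbouring gene Prepl, a peptidase-like gene read from the opposite strand whose end overlaps that of Slc3a1 by 767 bases, held 10.9, 12.0 and 12.7 units in CC019, against 13.1, 21.6 and 51.7 units elsewhere. Across strains CC032 was again the lowest after CC019 for Prepl (14.3 units), and CC011 and CC042 the highest (41.4 and 36.3 units). Whether reads were counted by strand is not given in the sources used here, so reads in the shared bases cannot be assigned.

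The largest local group of these genes lay in the major histocompatibility complex on chromosome 17, the gene-dense region that encodes antigen-presenting molecules and differs strongly between mouse haplotypes. Between 33974659 and 35267497 on chromosome 17, 8 genes had no overlap, 5 lower (H2-K2, H2-Eb1, Cfb, H2-D1 and H2-L) and 3 higher (Ring1, Ppt2 and Dxo). H2-Eb1, the beta chain of the class II molecule E, held 0, 0.206 and 0.467 units in CC019, against 6.83, 28.4 and 192 units in the other strains. Its log2 difference was -4.73 ± 0.95 (adjusted p = 0.380, limma on strain means). H2-Ea-ps, the row for the alpha chain of the same molecule, had strain means of 30.5 units in CC019 and 189 units in CC013, but between 0 and 1.27 units in the other 6 strains. CC019 thus had the alpha-chain row above 0 in each library, with the beta-chain row near 0. Loss of reads that differ from the reference haplotype was not tested for the genes of this region.

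The class I gene H2-D1, which presents peptides from inside the cell, held 119, 124 and 139 units in CC019, against 191, 451 and 768 units in the others (log2 difference -1.77 ± 0.45). H2-K2 was 8.36, 9.30 and 11.3 units in CC019, against 14.2, 29.9 and 78.8 units in the others. H2-L, whose locus in the table lies inside that of H2-D1, was 3.60, 4.81 and 7.58 units in CC019, against 6.35, 18.9 and 45.7 units in the others. Class I genes are near-identical copies of one another, so their separate values are uncertain. Of 25 tested class I genes, 11 were lower and 14 higher in CC019 than the mean of the others, with a median of 0.05. Cfb, complement factor B, held 679 to 785 units in CC019 and 799 to 1310 units elsewhere.

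Of the genes higher in this region, Dxo, a decapping enzyme that removes faulty messenger RNA caps, held 22.4, 24.7 and 27.9 units in CC019, against 8.99, 14.2 and 21.9 units in the other strains. Ring1, a Polycomb ubiquitin ligase, held 9.20 to 10.2 units in CC019 and 4.17 to 7.75 units elsewhere. Ppt2, a lysosomal thioesterase, held 24.1 to 27.0 units in CC019 and 15.7 to 23.5 units elsewhere. Chromosome 17 carried 21 of the 107 genes, 3.34% of its 629 tested genes, and chromosome 1 carried 17, 2.44% of 697, against 0.887% over all chromosomes. Neighbours in the set included Scly, a selenocysteine lyase, next to Hes6 (24.5 to 35.4 units in CC019 and 37.1 to 76.7 units elsewhere) and the pair Cox7a2l and Haao on chromosome 17.

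Sugct, a mitochondrial enzyme that passes coenzyme A to glutarate, was another low gene. It held 1.78, 2.28 and 3.66 units in CC019, against 10.50, 29.0 and 84.7 units in the others (log2 difference -3.13 ± 0.63). Every CC019 library was below every other library. Sugct overlaps the opposite-strand gene Mplkip by 362 bases, with the limit given for Slc3a1.

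Cd163, Pla2g7, Anxa5, Nrg4 and Colgalt2 were further low genes. Cd163, the macrophage receptor that clears haemoglobin bound to haptoglobin, held 1.36, 2.38 and 2.85 units in CC019, against 3.59, 13.9 and 44.3 units in the others. Pla2g7, the secreted enzyme that breaks down platelet-activating factor, held 0.635, 1.02 and 2.97 units in CC019, against 3.003, 9.98 and 21.8 units in the others. Anxa5, a phospholipid-binding annexin, held 19.9, 20.2 and 25.1 units in CC019, against 23.8, 63.8 and 125 units in the others. Its CC019 females and males each lay below the other strains' libraries of the same sex, although the ranges over both sexes touched. Nrg4, a growth factor of the neuregulin family, and Colgalt2, which adds galactose to collagen, were also low, with log2 differences of -1.44 ± 0.45 and -1.36 ± 0.75. Nrg4 overlaps the opposite-strand gene Fbxo22 by 4212 bases, so its reads cannot be assigned with certainty either.

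Among the 41 genes higher in CC019, the difference of Obp2a was the widest, at 4.20 ± 0.72 on the log2 scale. Obp2a, a lipocalin that carries small odorants, held 215, 316 and 394 units in the 3 CC019 males and 0.192, 0.964 and 2.66 units in the 3 CC019 females. The other strains' females held 0 to 0.123 units and their males 0 to 25.9 units, with a strain mean of 9.19 units in CC043 and at most 0.399 units in the other 6. The male minus female difference of Obp2a exceeded that of the other strains by 6.35 on the log2 scale, with an adjusted p of 0.442 (limma on strain differences). Fabp12, a small fatty acid binding protein, held 8.15 to 9.28 units in CC019 females and 1.76 to 5.67 units in CC019 males. The other strains held 0 to 3.35 units in females and 0 to 1.34 units in males. Their libraries averaged under 1 unit, so Fabp12 met the filter on low values only through CC019. Its place in the set is therefore a description only.

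Pm20d1, the secreted enzyme that joins fatty acids to amino acids, held 262, 275 and 289 units in CC019, against 72.1, 95.6 and 170 units in the other strains. Its CC019 mean was 262% of theirs, and its range across both sexes was narrow. Ogfod3, a member of the 2-oxoglutarate dioxygenase family, held 12.1, 14.6 and 16.6 units in CC019, against 4.003, 5.77 and 7.47 units in the others (log2 difference 1.18 ± 0.15, adjusted p = 0.0663, limma on strain means). It overlaps the opposite-strand gene Hexdc by 279 bases. Syvn1, the ubiquitin ligase that removes misfolded proteins from the endoplasmic reticulum, held 27.7, 35.4 and 54.4 units in CC019, against 8.15, 14.7 and 27.4 units in the others. Igfbp3, a carrier of insulin-like growth factors, held 34.7, 39.7 and 42.1 units in CC019, against 3.60, 17.9 and 33.8 units in the others. Emp1, Tspan33, Dusp23, Rsph3b, Exd1, Dcakd, Dxo and Gpr108 were also in the set, with log2 differences of 0.78 to 1.11.

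The differences were measured again in the HF/HS libraries of the same strains, and the 107 genes kept the direction of their difference in every case. Of the 107, 49 had no overlap on HF/HS either, 20 higher and 29 lower, and 0 had no overlap in the opposite direction. They were 45.8% of the control-diet set and 35.3% of the 139 genes that met the rule on HF/HS (1.15% of those tested, 0.646% higher and 0.506% lower). The 2 diets share no library, but they share the strains and so the genotypes. The 107 were picked for their separation, so a kept direction is no independent support. The share of all tested genes that kept their direction is not given here. Slc3a1 held 0.252, 0.826 and 1.18 units in CC019 on HF/HS, against 4.25, 33.9 and 280 units in the other strains. H2-Eb1 held 0.179, 0.276 and 0.475 units in CC019, against 5.37, 49.97 and 198 units in the others. Both sets of ranges stayed apart.

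With strain as the unit, 17 genes passed the adjusted threshold on HF/HS (0.141%), 8 higher (0.0663%) and 9 lower (0.0746%) in CC019. Hes6 fell to 11.8, 14.7 and 17.0 units in CC019, against 21.5, 58.1 and 99.2 units in the others (log2 difference -1.96 ± 0.22, adjusted p = 0.0260, limma). Jmjd7 and Pon3 fell by 1.34 and 1.27 (adjusted p = 0.0128 and 0.0380, limma). Together with Rps15a-ps6 these were the 4 genes that passed on each diet while the short RNA rows were kept. Without those rows Hes6 alone passed on the control diet. Ogfod3 rose by 1.42 ± 0.13 on HF/HS (adjusted p = 0.0128, limma), with 14.8, 15.5 and 17.1 units in CC019, against 3.62, 5.12 and 7.76 units in the others.

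Of the other genes that passed on HF/HS, F11r, a junctional adhesion molecule, fell by 0.98 ± 0.10, Dnajc10, a disulfide reductase of the endoplasmic reticulum, by 0.92 ± 0.11, Mcfd2, a cargo receptor for coagulation factors V and VIII, by 0.87 ± 0.11 and Ces2e, a carboxylesterase, by 1.37 ± 0.17. F11r, Dnajc10 and Mcfd2 also lacked overlap on the control diet, where F11r held 23.4, 25.2 and 29.1 units in CC019 and 43.8, 48.8 and 60.9 units elsewhere. A row of Hba-a2, a haemoglobin chain whose symbol appears in more than 1 row, fell too. The remaining 7 that passed were short RNA rows listed at 0 in every other HF/HS library, and 5 genes passed when such rows were left out. Some of the HF/HS calls above thus depended on those rows. Ogfod3, Jmjd7, F11r, Hba-a2 and Hes6 had unadjusted p values of at most 2.16e-05 on HF/HS (limma on strain means). For Pon3, Rps15a-ps6, Dnajc10, Mcfd2 and Ces2e they were at least 4.00e-05. A gene that passed on one diet and not on the other is not shown to differ between diets, since that difference was not tested.

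**Figure D3:**
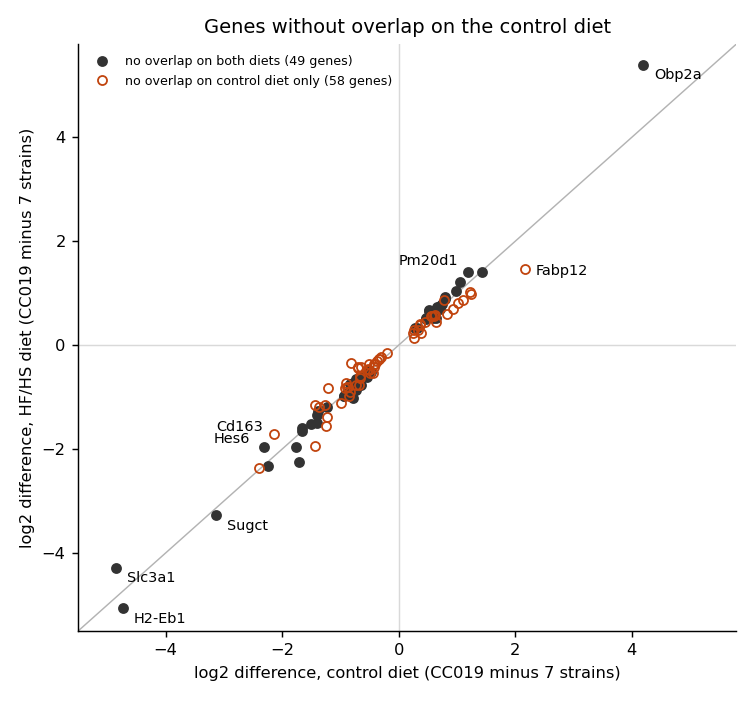
Log2 difference between CC019 and the 7 other strains for the 107 genes without overlap on the control diet, with the control diet on the x axis and HF/HS on the y axis. Filled points are the 49 genes without overlap on both diets, open points the rest, and the line marks equal differences. Each of the 107 points has the same sign on both axes.

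Among gene groups, markers of macrophages and of the Kupffer cells that reside in the liver were lower in CC019 throughout. Of 18 tested markers, 18 were lower, with a median log2 difference of -0.76 beside 0.01 over all genes tested. Over all genes tested, 5915 of 12065 were lower. CC019 was the lowest of the 8 strains for 8 of the 18, against 11.7% of all genes. None of the 18 passed the adjusted threshold. With libraries as the unit 13 passed it as lower, against 21.5% of all genes. Libraries of a strain are not independent, so that count is no test between strains. Clec4f, a lectin receptor of Kupffer cells, held 37.0 to 56.7 units in CC019 and 37.6 to 217 units in the others. Mpeg1, a pore-forming protein of phagocytes, held 17.7 to 32.6 units in CC019 and 22.01 to 121 units elsewhere. The summed level of 21 macrophage markers was 351 to 813 units in CC019 (median 382) and 376 to 2523 units in the others (median 765). In bulk tissue, fewer cells of a type and less RNA per cell cannot be told apart. The share of this in the low values of Cd163, Pla2g7 and the class II genes was not tested.

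Interferon-induced and class II genes had the same direction. Of 55 tested interferon-response genes, 49 were lower in CC019, with a median of -0.47. Gbp3, an interferon-induced guanylate-binding protein, held 1.71 to 3.23 units in CC019 and 1.16 to 49 units elsewhere. CC019 was the lowest strain for only 1 of the 55, against 11.7% of all genes. Of 9 class II genes, 8 were lower, with a median of -0.72. Cd74, the invariant chain, held 74.6 to 126 units in CC019 and 42.4 to 768 units elsewhere. Other blood-borne cell types lay on the same side. Of 5 tested lymphocyte markers, 5 were lower, with a median of -0.48, and of 4 red blood cell markers 3 were lower, with a median of -0.64 on the control diet and -1.19 on HF/HS. Summed red blood cell markers were 466 to 1091 units in CC019 (median 907) and 254 to 2814 units in the others (median 1274). Summed neutrophil markers were 4.86 to 7.22 units in CC019 (median 6.53) and 3.48 to 629 units in the others (median 15.6). Endothelial markers differed little in their median (0.01) and matrix and stellate markers were higher in 12 of 16.

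Male-biased liver genes tended to be high in CC019. Such genes depend in rodents on the pulsed growth hormone of males. Of 19 tested, 18 were higher in CC019 than the mean of the others, with a median of 0.67 on the control diet and 1.14 on HF/HS. None passed the adjusted threshold. With libraries as the unit 11 passed it as higher, against 22.2% of all genes, but libraries of a strain are not independent. Elovl3, a fatty acid elongase, held 488 to 907 units in CC019 males and 31.99 to 742 units in the other males, and 7.65 to 81.5 units in CC019 females and 0.270 to 30.0 units in the other females. Gstp1, a glutathione transferase, held 4624 to 5283 units in CC019 males and 305 to 4277 units in the other males. Of 25 female-biased genes, 16 were lower, with a median of -0.47. Hao2, a peroxisomal hydroxy acid oxidase, held 2.89 to 70.6 units in CC019 females and 6.16 to 222 units in the other females.

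The test of whether the male minus female difference of CC019 departed from that of the other strains gave 12 genes past the adjusted threshold (0.0995%), 11 microRNA rows and Snora68. For the 11, the 41 other libraries were at 0, so the spread comes from the prior alone, and 10 of them rested on 1 CC019 library each. Snora68 held values above 0 in 4 of 6 CC019 libraries and in all 41 others. At an unadjusted p under 0.05 there were 381 genes (3.16%), and without short RNA rows 0 genes passed the adjusted threshold, with limma on strain differences. No protein-coding gene was among the 12.

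Genes of lipid droplets, fatty acid oxidation and fatty acid synthesis were mostly lower. Of 23 lipid droplet and triglyceride genes, 19 were lower, with a median of -0.50. CC019 was the lowest strain for 9 of them, against 11.7% of all genes. Dgat2, which makes triglycerides from diglycerides, held 232, 282 and 378 units in CC019, against 315, 461 and 710 units in the others (log2 difference -0.67 ± 0.17). Of 29 genes of fatty acid oxidation and PPAR-alpha, the receptor that activates it, 24 were lower, with a median of -0.27. CC019 was the lowest strain for 7 of these, against the same 11.7%, among them the thioesterases Acot1, Acot2, Acot3 and Acot4. Of 20 fatty acid synthesis genes, 16 were lower, with a median of -0.38. They included Thrsp, a regulator of lipogenesis (142 to 1382 units in CC019 and 271 to 3081 units elsewhere), and Acly, which makes cytosolic acetyl-CoA. Elovl3 was among the 4 higher members, with a log2 difference of 1.75 ± 0.57 and CC019 as the highest strain. Cholesterol synthesis genes had no such direction on this diet, with 14 of 25 lower and a median of -0.06, while on HF/HS their median was -0.70. None of the genes in these 4 lists passed the adjusted threshold. Outside them, 14 of 21 tested bile acid genes were higher, with a median of 0.08. Of 20 lipoprotein genes 12 were lower, with a median of -0.03.

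Urea cycle and drug-handling enzymes had 1 member each without overlap, Asl of 24 genes of amino acid breakdown and the urea cycle, Gsta3 of 47 conjugating enzymes and Fmo4 of 26 carboxylesterases and flavin monooxygenases, against 0.887% of all genes. Of the 24, 17 were lower and CC019 was the lowest strain for 8, against 11.7% of all genes. Their median was -0.18 on the control diet and 0.02 on HF/HS. Asl, argininosuccinate lyase, held 277, 302 and 387 units in CC019, against 377, 548 and 1107 units in the others, with the sexes each apart. Gsta3, a glutathione transferase, held 650, 894 and 983 units in CC019, against 1102, 1575 and 2612 units in the others. Fmo4, a flavin monooxygenase, held 5.32 to 8.59 units in CC019 females and 12.9 to 36.3 units in the other females. Ces1d, a carboxylesterase that hydrolyses stored lipid, held 133 to 468 units in CC019 and 335 to 1531 units elsewhere. Among genes of the unfolded protein and ATF4 responses, 15 of 20 were higher, with a median of 0.33.

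**Figure D4:**
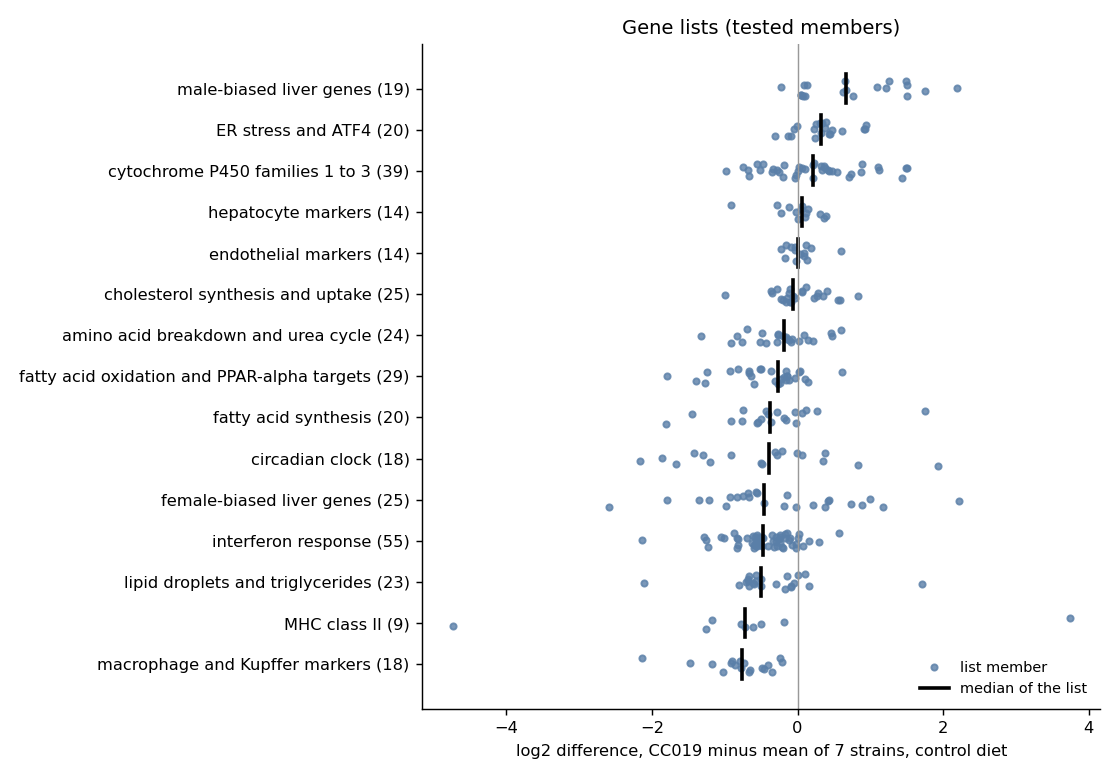
Log2 difference between CC019 and the mean of the 7 other strains on the control diet for the members of 15 gene lists, with the number of tested members beside each name. Points are genes and bars are medians. The medians run from 0.67 for male-biased genes to -0.76 for macrophage and Kupffer markers.

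Genes of the daily clock move with the hour at which a liver is taken, which the labels do not give. Of 18 tested clock genes, 13 were lower in CC019, with a median of -0.40. CC019 was the lowest strain for 7, against 11.7% of all genes. Per1 held 1.28, 2.02 and 4.61 units in CC019, against 2.13, 6.54 and 14.96 units in the other strains, and Usp2 held 0.433, 0.719 and 1.67 units in CC019, against 0.307, 7.50 and 30.8 units in the others. Nr1d1, a repressor of the clock, was higher, with 5.26, 23.5 and 36.9 units in CC019, against 0.433, 4.53 and 27.9 units in the others. None passed the adjusted threshold. On HF/HS the median of the list was -0.09. The part of clock phase in the low values of clock-linked metabolic genes was not tested.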

How the data were processed

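RNA was measured in mouse liver. The labels' protocols name a kit that removes ribosomal RNA and a kit for mRNA, and do not say which served which library. Per the submitters' processing notes, TopHat2 2.1.1, Bowtie2 2.2.5.0, Cufflinks 2.2.1 and mm10 were used. The authors deposited 1 table of FPKM-like values with 24883 rows and 120 columns. The rescaling formula, annotation release and strand setting are not given in the sources used here, and depth is unknown. No count was available, so no count test was run.

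Of the table, 47 control and 47 HF/HS libraries of 8 strains were used. The identical CC040 columns (female control 3 and female HF/HS 1, equal in all 24883 rows) were left out. The test took the genes averaging 1 or more across the 47 control libraries (12065, of which 161 rows share a symbol with another row). A gene could meet this through CC019 alone, as did Fabp12 and the microRNA rows at 0 in every other strain. Strain means of log2(value + 1), with equal weight for females and males, were compared with limma 3.58.1 in R 4.3.3 (trend and robust prior, two-sided, adjusted over the genes tested), as CC019 minus the mean of 7 strains. CC019 is 1 strain and is assumed to vary like the others. "Rose" and "fell" are used at an adjusted p under 0.05. The members and lists were chosen with earlier results of these data known, so list counts are descriptions. The naming rule took, leaving out repeated symbols, numbered models, pseudogenes and short RNAs, the 15 largest called differences per direction, the 5 largest per direction for the sex difference, up to 4 members per list and members of long runs of neighbours. Few genes were called, so it was applied to the genes without overlap, a choice made after seeing the data. A few of these genes are not reported here. Coordinates are mm10, counted from 1. Statmod 1.5.0 and the alternatives of the closing section were also used.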

Additional observations from a re-analysis of the deposited data

Results flagged for a closer look

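In the 6 CC019 control libraries, 1 library lay far from the other 5 for 4 of the 34 genes examined, by a gap test that flags about 1 in 20 groups by chance. Jmjd7 was 0.487 units in female 2. Pla2g7 was 2.97 units and Anxa5 25.1 units in female 3. Mir1954 was 3485 units in male 3 and 0 in the other 5.

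The male minus female difference of CC019 departed from that of the 7 other strains for 12 short RNA rows (adjusted p between 1.63e-05 and 7.78e-05, limma on strain differences). For all but Snora68 the other strains were at 0, so the spread comes from the prior alone. It was higher by 3.92 for Mir1954, 2.32 for Mir6386, 2.72 for Mir6395, 2.07 for Mir6541 and 6.19 for Snora68 on the log2 scale. It was lower for the others, at -2.42 for Mir20a, -2.88 for Mir27a, -3.01 for Mir491, -3.07 for Mir5123, -1.85 for Mir6372, -3.21 for Mir6921 and -2.68 for Mirlet7e. Apart from Mir6372 and Snora68, each rested on 1 CC019 library above 0.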

How the results depend on the processing

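The count of genes called on the control diet, 6 as reported, is small and moved with most settings. It was 2 and 17 with pseudocounts of 0.1 and 5, 71 with no filter and 1 with a mean of at least 5. It was 3 with quantile normalization, 16 without a trend, 14 with a prior that was not robust, 10 with 16 strain-sex means, 15 in females and 10 in males. It was 1 without short RNAs, and 5277 with the library as the unit. The sex difference gave 33 genes with no filter, 138 with the library as the unit and 0 without short RNAs, against 12. HF/HS gave 11 with a pseudocount of 0.1, 59 with no filter, 4 with a mean of at least 5, 5474 with the library as the unit, 8 with CC003 and CC060 added and 5 without short RNAs, against 17. The 107 genes without overlap became 29 when CC003 and CC060 were added, under a rule that each added strain makes harder to meet. The causes were not tested.

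Leaving out 1 library or 1 strain gave 2 to 13 called genes on the control diet, 107 to 178 without overlap, 9 to 20 for the sex difference and 4 to 21 on HF/HS. The control count was 13 without CC019 female 1, 10 without CC019 female 2, female 3 or male 2, and 3 without CC041 female 2 or CC043 female 2. It was 2 without CC032, CC040, CC041 or CC042, 3 without CC011 or CC013, and 11 without CC043. HF/HS was 9 without CC019 male 1 or CC013, 11 without CC011, 10 without CC042 and 4 without CC041. The sex difference gave 20 without CC043, and the genes without overlap were 161, 162 and 178 without CC032, CC041 and CC042.

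Hes6 stayed past the threshold when any library or strain was left out (adjusted p at most 0.0218), but not with 16 strain-sex means (0.573), in females (0.0622) or in males (0.322). Jmjd7 missed it without CC041 female 2 or CC043 female 2 (0.051 and 0.0501), with a pseudocount of 5, quantile normalization or CC003 and CC060 added, in females (0.0532 to 0.128), and without each strain except CC043 (up to 0.106). Pon3 missed it without any of 10 single libraries (0.0504 to 0.0578: CC011 male 1, CC013 female 1 and male 1, CC032 male 3, CC040 female 1 and male 2, CC041 female 2, CC042 female 1 and male 2, and CC043 female 2), with a pseudocount of 0.1, a mean of at least 5, quantile normalization or median-ratio size factors, in females (0.0502 to 0.0653), without each strain except CC043 (up to 0.128), and with CC003 and CC060 added (0.9998). Over the 34 genes examined and their 2404 alternative values, 78 lost and 70 gained the threshold, and 0 changed sign. Rps15a-ps6 missed it in 26 of 71 settings, among them without any of the 10 libraries named for Pon3, CC042 female 2 or CC043 male 1, and without each strain except CC043 (up to 0.129). The difference of Mir1954 was 0 in females and without CC019 male 3.

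The labels tie the replicate numbers to no shared animal, litter or day, and the numbers were not taken as pairs. Over 345 pairs with the same number in different groups, deviations from group means correlated at -0.319 to 0.231 (median 0.0116), and 28 of 47 libraries were closest on average to their own number among 3, a hint from the data and not from the design. With the number as a block, strain as the unit gave 6, 13 and 17 called genes (control, sex difference and HF/HS), and library as the unit gave 5349, 163 and 5465. The table holds no counts, so what depth limits cannot be stated.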

Other observations

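Cytochrome P450 genes of families 1 to 3, which oxidise drugs and steroids, were higher in CC019 for 24 of 39 tested members. The other 15 were lower. Their median log2 difference was 0.21 on the control diet and -0.10 on HF/HS, so the direction was not kept. Of these genes 0 passed the adjusted threshold (limma on strain means). An unadjusted p under 0.05 was found for 2 of the 39, against 4.24% of all genes, so that count is near the share over all genes. The P450 genes given next lay on the higher side. Cyp1a2, an oxidase of caffeine and aromatic amines, held 254, 452 and 855 units in CC019, against 60.8, 199 and 529 units in the other strains. Cyp2d22 held 172, 243 and 273 units in CC019, against 9.81, 88.6 and 255 units in the others. Mup20, a major urinary protein made by male livers, held 18481 to 22761 units in CC019 males and 321 to 36436 units in the other males.

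Glucose metabolism genes were lower for 18 of 21, with a median of -0.29. Ppp1r3b, a subunit that directs a phosphatase to glycogen, held 55.6, 90.7 and 130 units in CC019, against 103, 160 and 216 units in the others. Slc2a2, the glucose transporter of hepatocytes, held 159, 183 and 205 units in CC019, against 185, 266 and 404 units in the others. Mat1a, which makes S-adenosylmethionine in liver, held 430, 1362 and 1673 units in CC019, against 1268, 2272 and 5462 units in the others. Respiratory chain subunits were lower for 23 of 27, with a small median of -0.10.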
